A study of Mus musculus with 4 samples.

Results

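The 10 genes described here carry the early steps of the mouse cell cycle: the D-type cyclins Ccnd1, Ccnd2 and Ccnd3, the E-type cyclins Ccne1 and Ccne2, the D cyclin partner kinases Cdk4 and Cdk6, and the inhibitors Cdkn1a, Cdkn1b and Cdkn2a. They were listed by role, and the list was selected on earlier results of the same comparison, in which the fall of Ccnd2 after loss of Snf2l had been seen. All 10 were found among the 24594 genes of the count table, and all 10 passed the filter on low counts that left 13840 genes for testing. The libraries were poly(A) RNA-seq of untreated mouse embryonic stem cells (ESCs) of the 129S6/SvEvTac background, grown in serum and LIF on gelatin. WT cells were compared with Snf2l knockout cells, with 2 libraries per genotype in 1 batch. Snf2l, the protein of the gene Smarca1, is an ISWI-family ATPase that slides nucleosomes. It can be the motor of ISWI complexes such as NURF, which hold either Snf2l or the related ATPase Snf2h. The study reports considerably higher expression of Snf2h than of Snf2l in mouse ESCs. The knockout was made with Cas9 and kept as a clonal line, so that genotype and clone cannot be told apart.

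D-type cyclins bind Cdk4 and Cdk6 in G1 and start the phosphorylation of the retinoblastoma protein and its relatives, which releases E2F factors from repression. E-type cyclins then activate Cdk2, which completes that phosphorylation and opens S phase. Inhibitors of the INK4 family bind Cdk4 and Cdk6, whereas those of the CIP/KIP family bind cyclin and kinase together. ESCs are known for a short G1 phase, with high cyclin E and low levels of several inhibitors.

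Between 13771642 and 15608803 reads were counted per library, and Smarca1 itself fell from 620 and 626 counts in WT to 37 and 31 in the knockout. Of 10 ESC markers, Klf4 was called higher and Zfp42, which lies on chromosome 8, lower, while Pou5f1, Sox2 and Nanog were not called. The upward call depended on the fit: DESeq2, an alternative test, called 0 of the 10 higher, and edgeR with upper-quartile scaling called 3. The summed level of the 10 was 5041 and 5349 CPM (counts scaled to the library size) in WT and 5376 and 5564 CPM in the knockout. Chromosome 8, which carries none of the 10 genes, stood apart in the knockout, with a median log2 fold change of -0.51 over its 754 tested genes. Of all genes tested, 9.21% were called at an adjusted p under 0.05 by edgeR's quasi-likelihood test with Benjamini-Hochberg adjustment. Those called higher in the knockout were 4% of all genes tested, and those called lower were 5.21%. The labels do not say that the 2 libraries of a genotype came from separate cultures, so p-values measure only the spread between these libraries. In such bulk RNA, fewer cells of a type and less RNA per cell cannot be told apart.

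Levels of the 10 genes in WT ESCs spanned a wide range in CPM per kilobase (kb) of the deposited gene width. Such scaling puts genes of unequal length on a common scale, but the transcript lengths in these cells were not measured. Cdk4 was the highest, at 177 and 197 CPM per kb in the 2 WT libraries, and Cdk6, the other D cyclin partner, was the lowest, at 5.69 and 5.12. Ccne1 came second, at 122 and 131 CPM per kb. Ccnd1 followed at 50.7 and 52.1 CPM per kb and Ccnd3 at 31.7 and 34.2. These 4 leading positions did not overlap between neighbours. Cdkn1a, Ccnd2 and Ccne2 then lay close together, with means of 12.5, 11.8 and 11.5 CPM per kb, and neighbours among them overlapped. Cdkn2a and Cdkn1b also overlapped, at means of 7.39 and 7.08 CPM per kb. In the knockout the first 5 positions were held in the same order, and Ccnd2 moved from rank 6 to rank 9, where its range overlapped that of Cdk6.

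**Figure D1:**
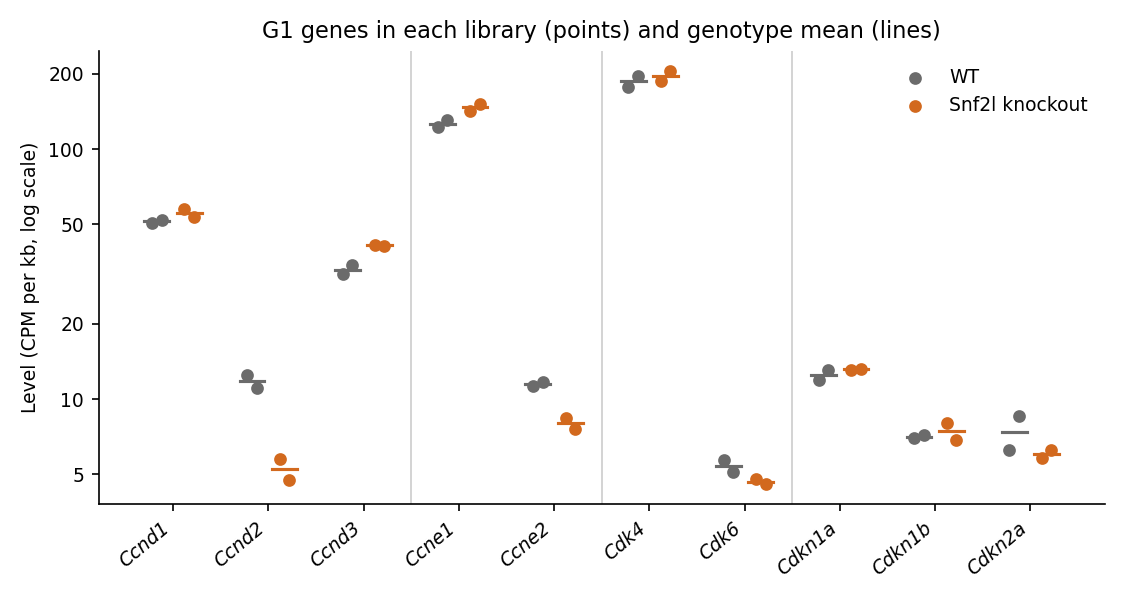
Levels of the 10 G1 genes in each library, in CPM per kb on a log axis, with a point for each WT and Snf2l knockout library and a line at each genotype mean. Cdk4 and Ccne1 are above 100 CPM per kb in all 4 libraries, and Ccnd2 shows the widest separation of the genotypes.

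Ccnd2 was lower in the knockout, Ccnd3 rose, and Ccnd1 was not called. Ccnd2 (gene 12444, GRCm38 chromosome 6, 127125162 to 127152188) gave 1176 and 1173 counts in WT, against 628 and 507 in the knockout. This was 81.5 ± 6.97 CPM (SD, n = 2) in WT and 36.5 ± 4.97 CPM (SD, n = 2) in the knockout, or 44.8% of the WT level. Both knockout libraries were far below both WT libraries, with a log2 fold change of -1.16 (SE 0.11), and no test is given because the gene was selected on this fall. Among the other 9 genes no change reached 2-fold, the largest being the log2 fold change of -0.52 of Ccne2. Of all genes tested, 0.99% passed an adjusted p under 0.01 together with a change of more than 2-fold. A long noncoding gene that overlaps Ccnd2, 9330179D12Rik, had at most 2 counts in any library.

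Genes next to Ccnd2 were read as well. Of the 5 tested genes on each side of it, 3 were lower in the knockout, the lowest with a log2 fold change of -0.15, and none of these was called. The 2 called neighbours were both higher: Prmt8, with a log2 fold change of 1.75, and Tspan9, with 0.79, each named after its values were seen. Markers of other cell types were read in the same comparison. The summed level of 8 neural progenitor markers was 72.5 and 73.2 CPM in WT and 36.4 and 36.9 CPM in the knockout, with Dcx at 0 counts in every library and Pax3 and Fabp7 at 0 in WT, and all 3 that could be tested, Pax6, Nes and Sox1, were called lower. Sox1 lies on chromosome 8, with a log2 fold change of -0.59, and off that chromosome the sum of the other 7 was 64.5 and 64.9 CPM in WT, against 30.5 and 31.9 CPM in the knockout. The summed level of 10 fibroblast markers rose from between 14.3 and 16.5 CPM to between 29.9 and 30.5 CPM, with 2 of 7 tested called higher, Lum at 0 in every library and Dcn at 2 counts or fewer. For 8 primitive endoderm markers the sum was 72.9 to 97.5 CPM in WT and 111 to 127 CPM in the knockout, with 4 of 7 tested called higher. For 7 trophoblast markers it was 63.3 to 72.9 and 73.9 to 77.1 CPM, with 2 of 6 tested called higher and Elf5 at 1 count in every library. Beside these counts of neighbours and markers, edgeR called 4.17% of all genes tested off chromosome 8 higher and 2.05% lower. DESeq2 called 1 of 6 primitive endoderm markers and 0 of 5 trophoblast markers, beside 5.77% of all genes tested. It called 2 of 6 fibroblast markers higher and 2 of 3 neural markers lower. The part of these other cell types in the change of Ccnd2 was not tested.

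Ccnd3, the D cyclin known for its role in the expansion of lymphocyte precursors, moved the other way. Its row (gene 12445, chromosome 17, 47505051 to 47599689) held 2651 and 3228 counts in WT, against 4001 and 3860 in the knockout, which is 203 ± 11.2 CPM (SD, n = 2) against 253 ± 2.71 CPM (SD, n = 2). Both knockout libraries were above both WT libraries. The log2 fold change was 0.32 (SE 0.09), with an adjusted p of 0.0312 in edgeR's quasi-likelihood test with Benjamini-Hochberg adjustment. This call rested on both WT libraries, since the adjusted p was 0.414 without WT replicate 1 and 0.119 without WT replicate 2, and it also was lost, at 0.0529, when genes with at least 1 count were kept. Ccnd3 overlaps the protein-coding gene Bysl, and whether reads were shared was not tested. RefSeq places more than 1 start in Ccnd3, which the single row does not separate. The 120 bases upstream of its 2 start sites, from RefSeq on GRCm38.p6, plus strand, are shown because transcripts of both would be pooled in that row, and capitals mark the GC box GGGCGG on either strand, the motif of Sp1-family factors.
Ccnd3 far start, chr17:47504931-47505050: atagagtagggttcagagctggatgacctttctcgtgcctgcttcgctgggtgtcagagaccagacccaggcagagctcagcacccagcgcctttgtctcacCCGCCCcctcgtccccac
Ccnd3 near start, chr17:47593347-47593466: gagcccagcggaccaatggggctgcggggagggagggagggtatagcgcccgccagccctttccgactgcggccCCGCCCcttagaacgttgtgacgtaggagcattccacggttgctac
Each stretch held 1 GC box.

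Ccnd1, the D cyclin that many mitogen pathways induce, was the most abundant of the D cyclins in every library. It gave 3251 and 3763 counts in WT, against 4242 and 3882 in the knockout (gene 12443, chromosome 7, 144929931 to 144939831). The means were 242 ± 4.73 CPM (SD, n = 2) and 261 ± 12.6 CPM (SD, n = 2). The genotypes did not overlap, but the log2 fold change of 0.11 (SE 0.09) was not called by edgeR's quasi-likelihood test, with an adjusted p of 0.504. Ccnd1 overlaps the protein-coding gene LTO1, and whether reads were shared was not tested.

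Whether the other D cyclins made up for the loss of Ccnd2 was read from the sum of the D cyclins in CPM per kb. The sum was 94.9 and 97.4 in WT, against 104.7 and 99.2 in the knockout, so it was lower in neither knockout library. Its mean was 96.1 ± 1.82 CPM per kb (SD, n = 2) in WT and 101.9 ± 3.83 (SD, n = 2) in the knockout, or 106% of WT. On average Ccnd2 fell by 6.49 CPM per kb, whereas Ccnd3 gained 8.20 and Ccnd1 gained 4.10. Over the 4 pairings of a WT with a knockout library, the summed gain of Ccnd1 and Ccnd3 was between 129% and 246% of the fall of Ccnd2. The smallest difference between the totals of any pairing was 1.82 CPM per kb and the largest 9.80, and the gain of Ccnd1 within it was not called. The sum is given as values without a test, because 2 libraries against 2 cannot give an exact two-sided permutation p below 0.333. The sum counts mRNA as a share of each library, and neither protein nor RNA per cell was measured.

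The makeup of the D cyclins also differed between the genotypes. Ccnd2 made up 12.2% ± 1.28 (SD, n = 2) of the D cyclin total in WT and 5.16% ± 0.51 (SD, n = 2) in the knockout. The share of Ccnd3 went from 34.3% to 40.4%, and that of Ccnd1 from 53.5% to 54.5%. In CPM per kb, the ratio of Ccnd1 to Ccnd2 was 4.39 ± 0.46 (SD, n = 2) in WT and 10.6 ± 0.94 (SD, n = 2) in the knockout. The ratio of Ccnd3 to Ccnd2 went from 2.82 ± 0.40 to 7.87 ± 0.99 (SD, n = 2 each).

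**Figure D2:**
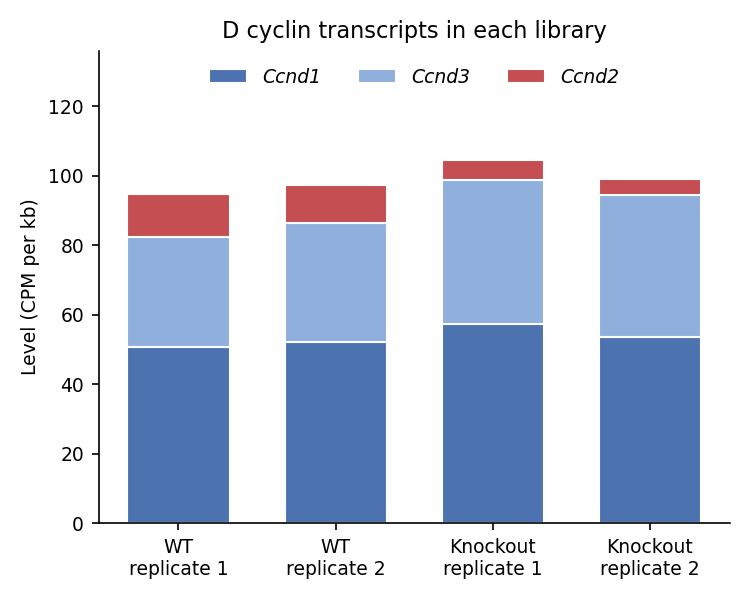
D cyclin mRNA in each library, in CPM per kb, with Ccnd1, Ccnd2 and Ccnd3 stacked in 1 bar per library. The Ccnd2 segment shrinks in the 2 knockout bars, while their totals, 104.7 and 99.2, lie above the WT totals of 94.9 and 97.4.

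The E cyclins differed in direction. Ccne2 (gene 12448, chromosome 4, 11190433 to 11204779) fell from 537 and 625 counts in WT to 459 and 409 in the knockout. Its level went from 40.1 ± 0.94 CPM (SD, n = 2) to 27.9 ± 1.87 CPM (SD, n = 2), or 69.6% of WT, with both knockout libraries below both WT libraries. The log2 fold change was -0.52 (SE 0.11), with an adjusted p of 0.00585 in edgeR's quasi-likelihood test with Benjamini-Hochberg adjustment, and Ccne2 was called in every one of its 13 alternative fits. Its row overlaps that of Ints8, a subunit of the Integrator complex, for which the log2 fold change was -0.17 and was not called, with an adjusted p of 0.276. Ccne1, the E cyclin that ESCs express strongly, gave 4429 and 5334 counts in WT, against 5940 and 6182 in the knockout (gene 12447, chromosome 7, 38097984 to 38107490). At 337 ± 16.0 CPM (SD, n = 2) against 390 ± 16.7 CPM (SD, n = 2), it lay higher in both knockout libraries, but the log2 fold change of 0.21 (SE 0.09) was not called, with an adjusted p of 0.150. Because Ccne1 held 91.7% of the E cyclin sum in WT and 94.8% in the knockout, the sum went from 138 ± 6.28 to 155 ± 5.75 CPM per kb (SD, n = 2 each), with the genotypes apart.

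The D cyclin partner kinases were not called. Cdk4 (gene 12567, chromosome 10, 127063535 to 127067288) gave 7838 and 9798 counts in WT, against 9558 and 10207 in the knockout. In CPM this was 608 ± 44.9 (SD, n = 2) against 637 ± 38.9 (SD, n = 2), and the genotypes overlapped, with a log2 fold change of 0.07 and an adjusted p of 0.719 in edgeR's quasi-likelihood test. The sign was not stable, since without WT replicate 1 the log2 fold change of Cdk4 was -0.0053. Cdk4 overlaps the protein-coding gene Tspan31, and whether reads were shared was not tested. Cdk6 (gene 12571, chromosome 5, 3341004 to 3531008) gave 916 and 928 counts in WT, against 884 and 833 in the knockout. Its level of 63.9 ± 4.77 CPM (SD, n = 2) in WT and 55.3 ± 1.51 CPM (SD, n = 2) in the knockout did not overlap, and the log2 fold change of -0.21 (SE 0.10) had an adjusted p of 0.233. Cdk4 was the prevailing partner in both genotypes, at 34.8 ± 5.15 (SD, n = 2) per Cdk6 in WT and 42.0 ± 3.71 (SD, n = 2) in the knockout, both in CPM per kb.

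None of the inhibitors among the 10 genes was called. Cdkn1a, which encodes the p53 target p21, gave 439 and 546 counts in WT, against 559 and 550 in the knockout (gene 12575, chromosome 17, 29090979 to 29100722). Its mean was 33.9 ± 2.39 CPM (SD, n = 2) in WT and 35.7 ± 0.11 CPM (SD, n = 2) in the knockout, with a log2 fold change of 0.07 (SE 0.11) and an adjusted p of 0.757. The knockout libraries lay above WT replicate 2 by less than the spread within WT. Cdkn1b, which encodes p27, a brake on Cdk2, gave 431 and 502 counts in WT, against 571 and 481 in the knockout (gene 12576, chromosome 6, 134920401 to 134925525). Here too the means were close, at 32.2 ± 0.77 and 33.8 ± 3.60 CPM (SD, n = 2 each), the libraries overlapped, and the log2 fold change of 0.07 (SE 0.11) had an adjusted p of 0.771. Without knockout replicate 1 it was -0.0398.

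Cdkn2a (gene 12578, chromosome 4, 89274473 to 89294619) was the least counted of the 10 genes and gave 100 and 153 counts in WT, against 107 and 113 in the knockout. Its level was 8.66 ± 1.86 CPM (SD, n = 2) against 7.09 ± 0.38 CPM (SD, n = 2). WT replicate 1 lay among the knockout libraries, and the log2 fold change of -0.30 (SE 0.18) had an adjusted p of 0.352 in edgeR's quasi-likelihood test. The locus encodes 2 unrelated proteins from separate starts, the INK4 inhibitor p16 and the p53-stabilising protein Arf, and the single row does not separate them. Bases upstream of the 2 starts of Cdkn2a are shown for that reason. Those of Cdkn1a are shown because transcripts of its 2 starts would also be pooled in 1 row. All are from RefSeq on GRCm38.p6, on the minus strand for Cdkn2a and the plus strand for Cdkn1a, with the GC box and the E2F motif in capitals.
Cdkn2a far start, chr4:89294620-89294739: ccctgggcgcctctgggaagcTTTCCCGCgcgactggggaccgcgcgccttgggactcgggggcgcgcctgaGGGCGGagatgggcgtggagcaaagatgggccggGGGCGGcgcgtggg
Cdkn2a near start, chr4:89282193-89282312: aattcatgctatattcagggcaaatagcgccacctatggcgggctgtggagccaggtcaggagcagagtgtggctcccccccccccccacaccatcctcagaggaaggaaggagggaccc
Cdkn1a far start, chr17:29090859-29090978: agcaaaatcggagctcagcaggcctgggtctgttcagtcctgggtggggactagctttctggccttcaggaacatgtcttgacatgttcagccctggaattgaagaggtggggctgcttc
Cdkn1a near start, chr17:29093649-29093768: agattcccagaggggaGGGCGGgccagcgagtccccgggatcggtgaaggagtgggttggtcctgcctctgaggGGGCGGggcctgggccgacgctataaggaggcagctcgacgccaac
The E2F motif was searched as TTTCCCGC, TTTCGCGC, TTTGCCGC or TTTGGCGC on both strands, and 0 of its matches overlapped a GC box. In windows from 250 bases before to 50 after each start, it was found in 1 of the 10 windows of 7 members, the far start of Cdkn2a, and in 2.26% of 32851 promoters. The GC box was found in 8 of the 10 windows and in 35.7% of all promoters. These matches describe the letters of the windows and not binding.

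**Figure D3:**
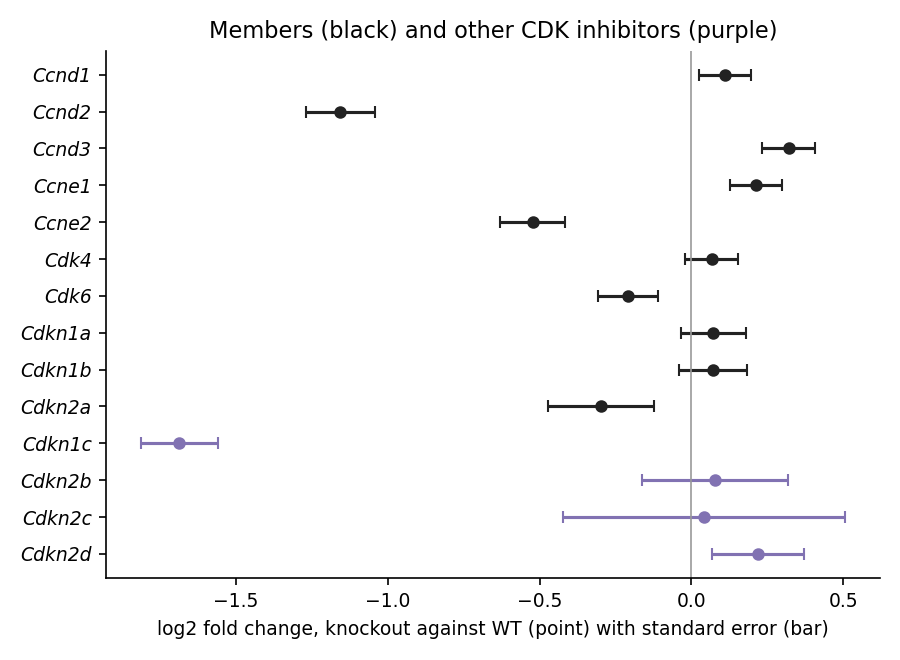
Log2 fold changes, knockout over WT, of the 10 G1 genes in black and of 4 other CDK inhibitors in purple, with bars of 1 SE from the edgeR fit. Ccnd2 lies at -1.16 and Ccne2 at -0.52, Ccnd3 lies at 0.32, and the other 7 of the 10 genes lie between -0.30 and 0.21.

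Counted together, 3 of the 10 genes were called, Ccnd3 higher and Ccnd2 and Ccne2 lower, beside the 9.21% of all genes tested. All 10 lie off chromosome 8, and of all genes tested off it 4.17% were called higher and 2.05% lower. The list was chosen knowing the fall of Ccnd2, and nothing is read from the 3 calls. The genotypes did not overlap for 7 of the 10 genes, beside 50.5% of all genes tested. The median log2 fold change of the 10 was 0.07.

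The CIP/KIP family has a further member, Cdkn1c, which encodes p57 and is an imprinted gene known for growth restraint in the embryo. Cdkn1c (gene 12577, chromosome 7, 143458339 to 143461059) fell from 619 and 689 counts in WT to 195 and 241 in the knockout. Its level went from 45.2 ± 0.37 CPM (SD, n = 2) to 14.1 ± 2.30 CPM (SD, n = 2), with a log2 fold change of -1.69 (SE 0.13) and an adjusted p of 1.6e-06 in edgeR's quasi-likelihood test with Benjamini-Hochberg adjustment. The gene was listed with earlier results of these data known, and this p is given as a description. In CPM per kb, Cdkn1c was the leading CIP/KIP inhibitor in WT, with 53.1% ± 1.54 (SD, n = 2) of the family, and held 25.1% ± 3.76 (SD, n = 2) in the knockout. The sum of Cdkn1a, Cdkn1b and Cdkn1c was 41.1 and 42.3 CPM per kb in WT and 27.2 and 27.7 in the knockout. Of this difference, Cdkn1c accounted for a loss of 15.3 CPM per kb, while Cdkn1a and Cdkn1b were 0.65 and 0.36 CPM per kb higher. Unlike the D cyclins, the CIP/KIP family was lower as a sum in both knockout libraries.

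**Figure D4:**
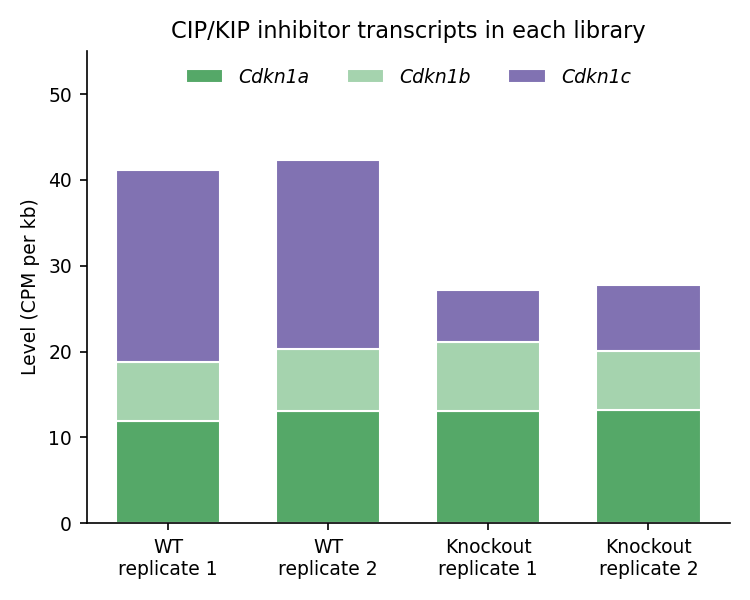
CIP/KIP inhibitor mRNA in each library, in CPM per kb, with Cdkn1a, Cdkn1b and Cdkn1c stacked in 1 bar per library. The Cdkn1c segment is the largest in the WT bars, whose totals are 41.1 and 42.3, and the knockout totals are 27.2 and 27.7.

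The INK4 family, by contrast, overlapped between the genotypes. Its sum over Cdkn2a, Cdkn2b, Cdkn2c and Cdkn2d was 16.0 ± 1.73 CPM per kb (SD, n = 2) in WT and 15.9 ± 1.68 (SD, n = 2) in the knockout. The Cdkn2a row, which does not separate p16 from Arf, made up 45.8% of this sum in WT and 38.2% in the knockout. The log2 fold changes were 0.08 for Cdkn2b, 0.04 for Cdkn2c, which had at most 14 counts in a library, and 0.22 for Cdkn2d, and none was called. That of Cdkn2b was -0.0970 without knockout replicate 2.

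Partners and targets of the 10 genes were read from 6 further lists: other CDK inhibitors, the RB and E2F proteins, other G1 and S kinases, cyclins and phosphatases, factors of cyclin and CIP/KIP turnover, mitogen and growth inputs, and replication genes. These lists were chosen with earlier results of these data known, and their p-values are given as descriptions. Of 112 genes, 111 were tested, 3 were called higher, beside 4% of all genes, and 11 lower, beside 5.21%. Of the 11 that were lower, 10 lay on chromosome 8. Away from that chromosome 100 were tested, of which the 3 were called higher and Cdkn1c alone lower, beside 4.17% and 2.05% of all genes off chromosome 8.

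Among the RB and E2F proteins, E2f1, the activator that Cdk phosphorylation of RB sets free, rose, and its relatives on chromosome 8 fell. E2f1 gave 460 and 578 counts in WT, against 690 and 770 in the knockout, a log2 fold change of 0.39 (SE 0.11) with an adjusted p of 0.0357 in edgeR's quasi-likelihood test with Benjamini-Hochberg adjustment. It was not called by DESeq2, at an adjusted p of 0.0903, nor without WT replicate 1, WT replicate 2 or knockout replicate 2, at 0.348, 0.0623 and 0.137. Rbl2, which encodes the pocket protein p130, fell by 0.69 on the log2 scale, E2f4, a repressor E2F, fell by 0.49, and Tfdp1, the dimer partner of E2F factors, fell by 0.66. These last 3 all lie on chromosome 8, and the call of Rbl2 was lost without knockout replicate 2, at an adjusted p of 0.0942. Rb1 and Rbl1 were not called, with log2 fold changes of -0.21 and -0.27, although Rbl1 was called without knockout replicate 1, at 0.0269.

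Cdk2, the partner of the E cyclins, was at 113 ± 3.06 CPM (SD, n = 2) in WT and 95.1 ± 3.39 CPM (SD, n = 2) in the knockout. Its log2 fold change of -0.25 (SE 0.09) was not called, with an adjusted p of 0.116. The 1 gene called among the other kinases, cyclins and phosphatases was Ccng2, a cyclin linked to arrest rather than to progression, which went from 79 and 84 counts in WT to 150 and 145 in the knockout, a log2 fold change of 0.75 with an adjusted p of 0.00665. Myc and Mycn, which drive G1 progression, were not called, with log2 fold changes of 0.28 and -0.10. Myc had an adjusted p of 0.0608, and it was called under upper-quartile scaling, at 0.0414, and with library sizes left unscaled, at 0.0466. Lef1, a Wnt effector and the 1 called gene of the growth inputs, rose from 65 and 82 counts to 323 and 294, a log2 fold change of 1.97 with an adjusted p of 1.86e-06.

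The called genes of turnover and replication all lay on chromosome 8 with the 4 libraries in the fit by genotype. Cul4a and Fbxo31, which serve in ubiquitin ligases, were the 2 called of 18 turnover genes, with log2 fold changes of -0.61 and -0.57, and off chromosome 8 edgeR called 0 of 16, with 0 at an unadjusted p under 0.05 and 0 by DESeq2. Among 38 replication genes 5 were called, all lower and all on chromosome 8, led by Gins3 with -0.72, Orc6 with -0.53, Mcm5 with -0.44 and Gins2 with -0.37 on the log2 scale. The calls of Mcm5 and Gins2 depended on single libraries: without WT replicate 2 their adjusted p was 0.0517 and 0.167, and that of Gins2 was 0.0980 without WT replicate 1. Off chromosome 8 edgeR called 0 of 32 replication genes, with 6 at an unadjusted p under 0.05 and 0 by DESeq2. Leaving out either knockout library gave calls among the 32 in edgeR. For both lists, the shares of all genes tested off chromosome 8 were 4.17% called higher and 2.05% called lower.

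**Figure D5:**
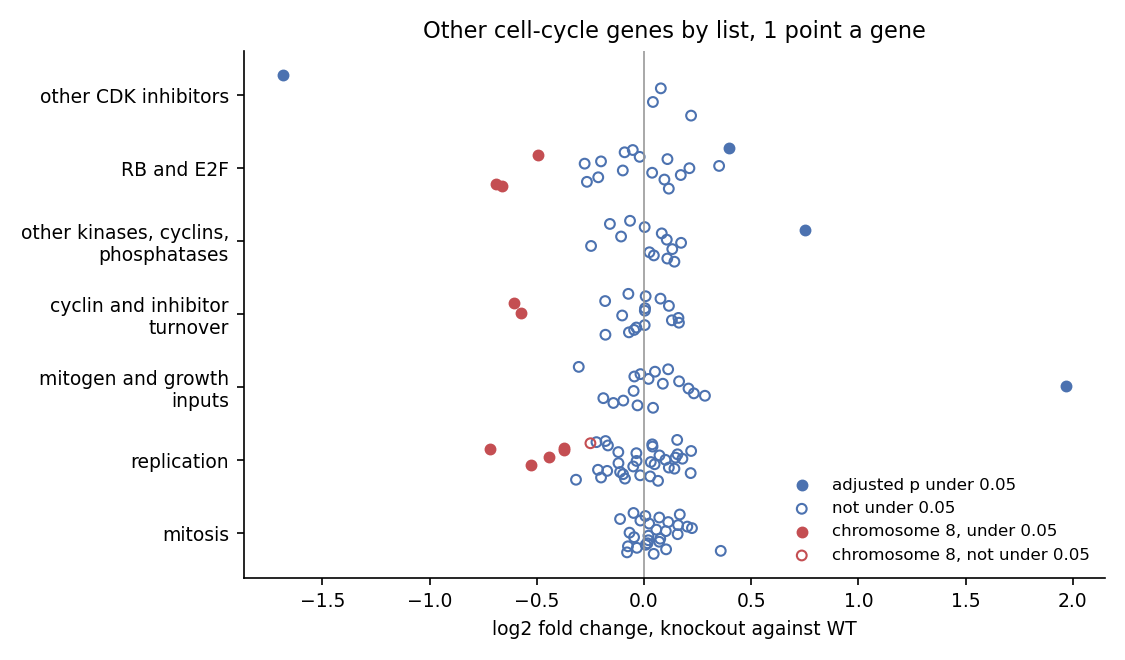
Log2 fold changes, knockout over WT, of the tested genes in the 6 further lists and of the mitotic genes. Each point is a gene, in red for chromosome 8 and blue for the rest, filled where the adjusted p was under 0.05. The 11 tested genes on chromosome 8 have a median of -0.53, and Lef1 and Cdkn1c are the outermost of the others.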

How the data were processed

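Poly(A) RNA of 2 WT and 2 Snf2l knockout ESC libraries was measured. The authors deposited whole-number read counts per gene: reads were demultiplexed with bcl2fastq 2.17, aligned to mm10 with HISAT2 through QuasR and counted over UCSC knownGene genes. The labels name a stranded kit and the study's methods an unstranded one, and the strand setting of counting was not given in the sources used here, so reads of overlapping genes may be shared. Entrez identifiers were matched to RefSeq symbols (24570 of 24594 rows, the rest holding 0.139% of counts). Counts were tested in edgeR 4.0.16 (R 4.3.3) after filterByExpr with a minimum count of 10 and TMM scaling, with the quasi-likelihood test on genotype and Benjamini-Hochberg adjustment over 13840 genes, on simulated data first. DESeq2 1.42.0 was an alternative. CPM used TMM-scaled library sizes, and CPM per kb the deposited gene width. A call is an adjusted p under 0.05. Counting precision follows from totals of 13771642 to 15608803 reads. Alternatives covered scaling, low-count filters, DESeq2, the later edgeR form, a replicate block and leaving out each library.

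The members and lists were chosen with earlier results of these data known. Named genes were all 10 members, 4 other CDK inhibitors, Cdk2, Rb1, Rbl1, Rbl2, E2f1, Myc and Mycn, and in each further list up to 4 called genes with the largest change. Markers and Ccnd2 neighbours were described apart from this rule.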

Additional observations from a re-analysis of the deposited data

How the results depend on the processing

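Each named gene was refitted under up to 13 alternatives. For the 10 members, 123 of 130 values kept their direction and side of the threshold. The 3 calls that were lost were those of Ccnd3 given with its result, and the 2 gained, Ccne1 and Cdk6, came with the replicate block, at adjusted p-values of 0.00144 and 0.0140 in edgeR. Direction turned when 1 library was left out for Cdk4 (log2 fold changes from -0.0053 without WT replicate 1 to 0.14), Cdkn1b (-0.0398 without knockout replicate 1 to 0.18) and Cdkn2b (-0.0970 without knockout replicate 2 to 0.24), and the cause was not tested. Of 271 values of 21 other named genes, 255 kept direction and side. The D cyclin total, recomputed under the 4 other scalings, without division by length and without each library, stayed above WT, with log2 ratios from 0.048 to 0.12.

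The number of members called was 3, and 1 under an adjusted p under 0.01 with a change of over 2-fold. Of all genes tested, 0.99% passed that stricter rule. Ccnd2, on whose fall the list was selected, was in both counts, and nothing is read from them. With the replicate block 5 members were called, with 15 genes of the further lists called higher and 25 lower. Over all genes 3471, or 25.1%, were called with the block, against 1274 without it and 799 by DESeq2. The block also called Cdk2 (adjusted p 0.00144), Rbl1 (0.0192) and Myc (0.000106), and off chromosome 8 it called 3 turnover, 12 replication and 6 mitotic genes. Same-numbered libraries deviated together with a correlation of 0.196, and 2 pairs do not establish pairing. Without chromosome 8 genes 1 gene of the further lists was called lower, and leaving out 1 library gave 2 to 5 called higher. Over all genes, leaving out 1 library gave from 829 called (without WT replicate 1) to 1932 (without knockout replicate 1), and the cause was not tested. With 2 libraries per genotype, small changes, and those of genes with few counts such as Cdkn2c, were not resolved at this depth.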

Other observations

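Genes of mitosis, the far end of the cycle from the G1 genes, gave no calls with the 4 libraries in the fit. Of 28 tested mitotic genes edgeR called 0, with 2 at an unadjusted p under 0.05, Cdc20 and Pttg1, and DESeq2 called 0. Both were named after their values were seen. Their log2 fold changes were 0.20 for Cdc20, the activator of the anaphase-promoting complex, and 0.36 for Pttg1, which encodes securin. The median over the 28 genes was 0.03, and their summed level was 7055 and 6746 CPM in WT and 7082 and 6953 CPM in the knockout, so the genotypes overlapped. Without knockout replicate 1 edgeR called some of the 28, all of them higher.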
